A study of Homo sapiens with 14 samples.

Results

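Long intergenic noncoding RNAs (lincRNAs) of PANC-1, a cell line grown from a human pancreatic carcinoma, were followed during exposure to proanthocyanidins (PA, polymers of plant flavanols). The set holds 96 of the 28120 genes in the deposited table of reads. It was chosen from the 4694 rows typed lincRNA by a mean of 100 or more reads over the 8 libraries of cells given the vehicle DMSO, with 3 further rows on chromosomes X and Y left out. The last lincRNAs inside that limit were LINC00665 with a mean of 100.125 reads, RP11-725P16.2 with 101.125 and RP11-452F19.3 with 105, and among the first outside were RP11-10C24.3 with 99.875 and LINC00883 with 99.5. Poly(A) or total RNA selection is not given in the sources used here, and the labels name total RNA. The 7 groups, of 2 libraries each, were DMSO at 0, 3, 12 and 24 h and PA at 20 micrograms per ml for 3, 12 and 24 h, all in the same unmodified cell line at the same passages. Nothing in the labels says that the 2 libraries of a group came from separate cultures beyond the words "biological replicate", so p-values measure the spread between these libraries.

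LincRNAs are transcribed by RNA polymerase II from their own promoters, are mostly capped, spliced and polyadenylated, and code for no known protein. MALAT1 gathers in nuclear speckles beside splicing factors, and NEAT1 is the scaffold without which paraspeckles do not form. Others act in the cytoplasm, as NORAD does by binding Pumilio proteins, or serve as host transcripts from which microRNAs or small nucleolar RNAs (snoRNAs) are cut. In pancreatic and other carcinomas several are studied as regulators of growth, among them MEG3, PVT1 and CYTOR.

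Mature microRNAs cut from members of the set are shown first, since their hosts were among the lincRNAs that differed with PA. They are taken from RefSeq (GRCh38.p14), with the seed, bases 2 to 8, in capitals, and none of the 6 shares its seed with another. The libraries measured the host RNA and not the mature microRNAs.
hsa-miR-146a-5p, from CTC-231O11.1: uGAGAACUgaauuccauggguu
hsa-miR-210-3p, from MIR210HG: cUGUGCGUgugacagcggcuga
hsa-miR-23a-3p, from CTD-3252C9.4: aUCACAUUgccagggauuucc
hsa-miR-27a-3p, from CTD-3252C9.4: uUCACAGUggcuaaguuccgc
hsa-miR-24-3p, from CTD-3252C9.4: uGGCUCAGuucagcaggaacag
hsa-let-7i-5p, from RP11-631N16.2: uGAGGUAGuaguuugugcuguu

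From the NORAD transcript of GENCODE 29 (GRCh38), 3 of 15 matches to TGTANATA, the motif that Pumilio proteins bind, are shown in capitals because these proteins are described with NORAD further on, each with 8 bases on either side. The member HCG11, named after the matches were counted, has 16, and both transcripts have 2.81 per kb. How often transcripts outside the set hold this motif is not given here.
NORAD bases 753 to 776: aaggcctgTGTATATAatatgaaa
NORAD bases 1132 to 1155: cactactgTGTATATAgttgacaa
NORAD bases 1233 to 1256: tcacatttTGTAAATAcctttttg

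A pair of promoters is shown because the lincRNAs that start there moved with PA while in 1 case the coding gene on the other strand moved the opposite way. Each runs from 250 bases before to 50 after the RefSeq start (GRCh38.p14), with the motif ACGTG, the core bound by hypoxia-inducible and other basic helix-loop-helix factors, in capitals on either strand (CACGT on the strand shown is its reverse complement). ACGTG was found in 21.41% of 35116 RefSeq promoters of that length, so a match here is a description and not a binding site. The HK2 window, chr2:74833877-74834176 on the plus strand, also holds the start of the minus-strand lincRNA RP11-259N19.1, 140 bp from the RefSeq start of HK2. The MIR210HG window is chr11:568408-568707 on the minus strand.
HK2 and RP11-259N19.1: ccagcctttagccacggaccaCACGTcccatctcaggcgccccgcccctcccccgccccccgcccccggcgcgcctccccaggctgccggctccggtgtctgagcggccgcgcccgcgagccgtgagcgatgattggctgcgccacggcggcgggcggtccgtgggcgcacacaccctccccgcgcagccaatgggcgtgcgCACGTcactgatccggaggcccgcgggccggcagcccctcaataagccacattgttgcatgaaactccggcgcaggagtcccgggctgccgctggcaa
MIR210HG: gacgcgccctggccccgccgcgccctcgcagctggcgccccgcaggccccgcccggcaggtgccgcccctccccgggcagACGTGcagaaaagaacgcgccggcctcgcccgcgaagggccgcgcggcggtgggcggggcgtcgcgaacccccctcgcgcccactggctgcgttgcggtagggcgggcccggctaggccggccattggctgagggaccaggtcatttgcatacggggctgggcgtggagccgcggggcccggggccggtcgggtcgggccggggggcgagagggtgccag

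Reads in genes ranged from 26403984 to 35213154 per library, so a count of 0 would allow up to 3 reads, or 0.0852 to 0.114 CPM (reads scaled to library size). The epithelial keratin genes KRT8 and KRT18 and the mesenchymal gene VIM, which PANC-1 cells are known to express together, had RPKM (reads normalised to gene length and library size) of at least 681 in every library. Of the other epithelial and ductal markers KRT19 had 356 to 1991 RPKM and KRT7 3.47 to 9.41. EPCAM had 1.64 to 2.98 RPKM and CDH1 only 0.06 to 0.21. PTPRC, PECAM1, VWF and DCN, which mark leukocytes, endothelium and fibroblasts, never passed 0.04 RPKM. The rest of that list was present, CD68 at 16.1 to 33.9 RPKM and COL1A1 at 1.16 to 4.11. KRT7, KRT8, KRT18 and KRT19, 4 of 6 epithelial and ductal markers, rose at 12 and 24 h, as did COL1A1 and CD68, the 2 tested of 6 markers of other cell types. Their part in the results was not tested. MALAT1 alone took 0.628 to 1.92% of all reads and 85.0 to 95.2% of the reads of the set. Per unit of length MALAT1 was also far above the rest, with 1417 ± 261 RPKM over the 8 DMSO libraries (SD). NORAD, listed as LINC00657, followed with 38.7 ± 5.38 RPKM, and NEAT1 had 12.7 ± 3.23. The median of the 94 members with an RPKM value was 2.74, and 90 members had under 1000 reads.

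Not every member is still a lincRNA. In GENCODE 29, which holds 95 of them, 82 keep the type lincRNA, 4 are typed protein coding (C14orf132, NCBP2-AS2, RP11-785H5.1 as SMIM10L1, and AC093323.3), 5 are pseudogenes and 4 have other types. In 26 members at least 10% of the exonic bases lay in exons of another gene, on either strand, and the strand setting of the authors' counting is not given in the sources used here, so their reads cannot be assigned with certainty. After these, and the 8 whose reads were not proportional to RPKM or that had none, 58 members remained. A second row named MALAT1, typed protein coding, held 15307 to 61271 reads but 0.02 to 1.28 RPKM and was not used.

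PA was followed by lower levels of many lincRNAs from 3 h on and by higher levels of fewer from 12 h on. At 3 h 12 members fell in edgeR's quasi-likelihood test (adjusted p under 0.05 over all 15181 genes tested), which is 12.5% of the set against 1.58% of all genes tested (1.72% in either direction). None rose at 3 h, against 0.138% of all genes, where edgeR gave 5 members with a higher level at an unadjusted p under 0.05 and DESeq2 called none higher. BCYRN1, not called at 3 h in the main fit (1.09, adjusted p = 0.196), was called higher by edgeR without the filter on low counts (1.11, adjusted p = 2.87e-06). It was also called with the compared libraries alone (1.09, adjusted p = 0.0240). The size of the change was much the same in these fits. Without DMSO replicate 2 it was 2.01. At 12 h 37 members fell and 14 rose, and at 24 h 36 fell and 13 rose. Among all genes 24.1% fell and 24.4% rose at 12 h, and 27.5% and 27.2% at 24 h. The median log2 change of the members was -0.25 at 3 h, -0.38 at 12 h and -0.29 at 24 h, against -0.01, 0.01 and -0.01 for all genes tested. All 96 members passed the expression filter.

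These counts describe the set and do not test it, because the rule reads the DMSO libraries that enter every comparison: a lincRNA that PA lowers stays in, and one that PA lifts from below the limit stays out. With members chosen by the mean over all 14 libraries instead (92 lincRNAs, 87 of them shared), 7 (7.61%) fell at 3 h. By that rule 29 (31.5%) fell and 17 (18.5%) rose at 12 h, and 30 (32.6%) fell and 17 (18.5%) rose at 24 h. Among the 10363 genes of any type that had 100 or more reads in DMSO, 1.94% fell at 3 h. At 12 h 30.1% of those genes fell and 28.4% rose, and at 24 h 33.0% fell and 30.7% rose. Among the 5326 genes of any type with 100 to 1000 DMSO reads, 1.48% fell at 3 h. At 12 h 26.9% of the 5326 fell and 28.5% rose, and at 24 h 29.6% fell and 30.5% rose. The share of the 92 lincRNAs that fell at 12 and 24 h was thus close to that of the 10363 genes of any type. The share that rose was smaller than in either set of genes of any type. The sets were chosen over different libraries. The 3 h calls were also fragile: of the 12 calls 4 were kept without DMSO replicate 1, 6 without DMSO replicate 2, 1 without PA replicate 1 and 5 without PA replicate 2, and only NEAT1 was called in all 4 of these fits. At 12 h 29 of the 51 were kept without DMSO replicate 1 and also 29 without PA replicate 1, and 25 held in each of the 4 fits. At 24 h 33 of 49 did.

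Calls recurred across times, in comparisons that share no library, for the members much as for all genes. Each of the 12 that fell at 3 h also fell at 12 and at 24 h, as did 96.7% and 95.8% of the 240 genes of any type that fell at 3 h. Of the 37 that fell at 12 h, 31 (83.8%) also fell at 24 h, which is 86.1% of the 36 at 24 h. Over all genes these shares were 83.1% and 73.1%. Of the 14 that rose at 12 h, 10 (71.4%) also rose at 24 h, which is 76.9% of the 13 there, against 82.6% and 74.0% over all genes. No member rose at 1 of these times and fell at the other, and 37 of the 96 passed the test at no time.

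**Figure D1:**
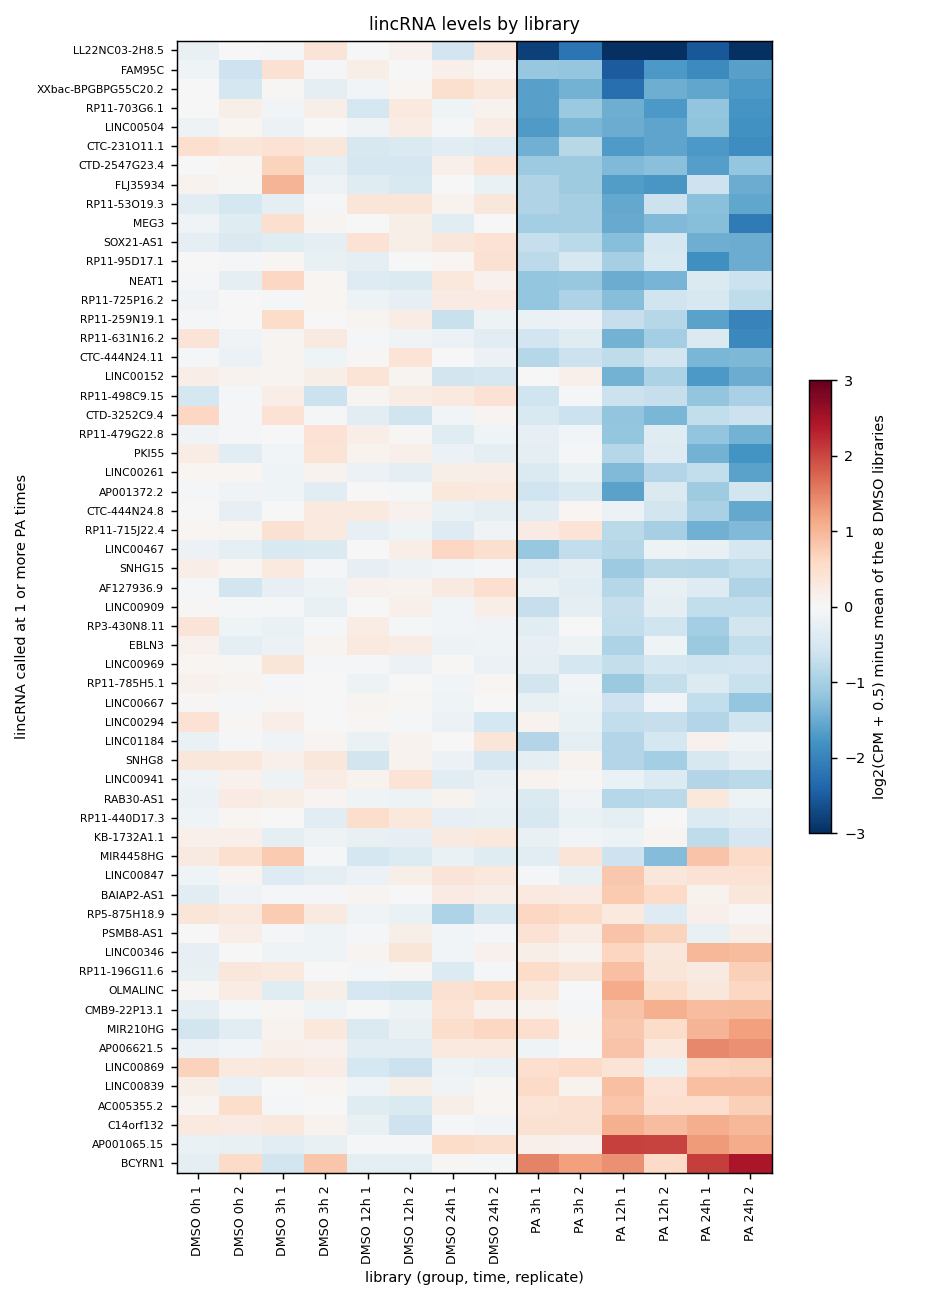
Level of each lincRNA called at 1 or more PA times (rows) in each of the 14 libraries (columns), as log2(CPM + 0.5) minus the mean of the 8 DMSO libraries, with blue for lower, red for higher and the colour scale ending at -3 and 3. The black line separates DMSO from PA; the rows are ordered by their mean change, from LL22NC03-2H8.5 at the top to BCYRN1 at the bottom.

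NEAT1 (ENSG00000245532.5, chr11:65422774-65445540), the paraspeckle scaffold, fell at every time. Its libraries held 288 and 241 CPM at 0 h. At 3 h it stood at 449 and 306 CPM with DMSO and 132 and 133 with PA. At 12 h DMSO libraries held 224 and 217 CPM and PA libraries 104 and 110.3. At 24 h the values were 365 and 319 with DMSO and 216 and 188 with PA. At each time the PA pair was lower than the DMSO pair without overlap, and also lower than the pair at 0 h. The log2 changes were -1.51 ± 0.17 (SE, adjusted p = 0.000524) at 3 h, -1.04 ± 0.17 (adjusted p = 0.000399) at 12 h and -0.76 ± 0.17 (adjusted p = 0.00184) at 24 h. With an offset for the GC content and length of genes the 24 h change was -0.23 (adjusted p = 0.269). Lower NEAT1 per cell and fewer cells that express it cannot be told apart in RNA of a whole culture, and the same holds for every member.

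Of 24 tested rows of paraspeckle proteins, 2 rose and 7 fell at 12 h, and 2 rose and 7 fell at 24 h, not all of them the same. The median log2 change was -0.11 and -0.26. A second row of TARDBP, at only 0.0719 to 0.506 CPM, is among those that fell at 12 h. Over all genes tested 24.1% fell and 24.4% rose at 12 h, and 27.5% fell and 27.2% rose at 24 h. The counts of the other gene lists below are to be read beside these same shares. NUDT21, a subunit of the 3′ end cleavage factor that sets which NEAT1 isoform is made, had -0.78 at 12 h (adjusted p = 0.00110) and HNRNPR -0.61 (adjusted p = 0.00549). Of the core proteins of the body, chosen after their values were seen, SFPQ fell at 24 h (-0.46, adjusted p = 0.0266) and had -0.21 at 12 h, while NONO and PSPC1 were not called (0.36 and -0.06 at 12 h, 0.40 and -0.04 at 24 h).

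MALAT1 (ENSG00000251562.6, chr11:65497688-65506516), the most abundant member, was not called at any time in the test across all 14 libraries. At 0 h its libraries held 11004 and 12926 CPM. At 3 h DMSO libraries held 14023 and 11792 CPM and PA libraries 6155 and 7357, with both PA libraries lower. At 12 h the values were 9287 and 12410.3 with DMSO and 7469 and 13350.4 with PA, and at 24 h 16995 and 14638 with DMSO and 23257 and 12926 with PA. The groups overlapped at the later times, and the replicates given PA differed most, replicate 1 being the lower at 12 h and the higher at 24 h. The log2 changes were -0.93 ± 0.28 (adjusted p = 0.122), -0.06 ± 0.27 (adjusted p = 0.875) and 0.19 ± 0.27 (adjusted p = 0.573). The 3 h change was called by DESeq2 (-0.91, adjusted p = 0.0397), by edgeR without a filter (-0.91, adjusted p = 4.11e-14) and by edgeR on the compared libraries alone (-0.93, adjusted p = 0.000182). The size of the change was much the same in all of these fits, which compare the same 2 libraries a group, so the smaller p-values add no further data. The offset for GC content and length turned the 12 h value to 0.89 (adjusted p = 0.00225) and raised the 24 h value to 1.13 (adjusted p = 0.000244), so that the direction for MALAT1 depends on that choice. Of 19 genes for speckle proteins and enzymes that process the MALAT1 3′ end, 2 rose and 7 fell at 12 h, and 3 rose and 11 fell at 24 h. PNN, a speckle protein, had the lowest values among them, with -1.32 at 3 h (adjusted p = 0.00322) and -2.30 at 12 h (adjusted p = 5.89e-06).

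**Figure D2:**
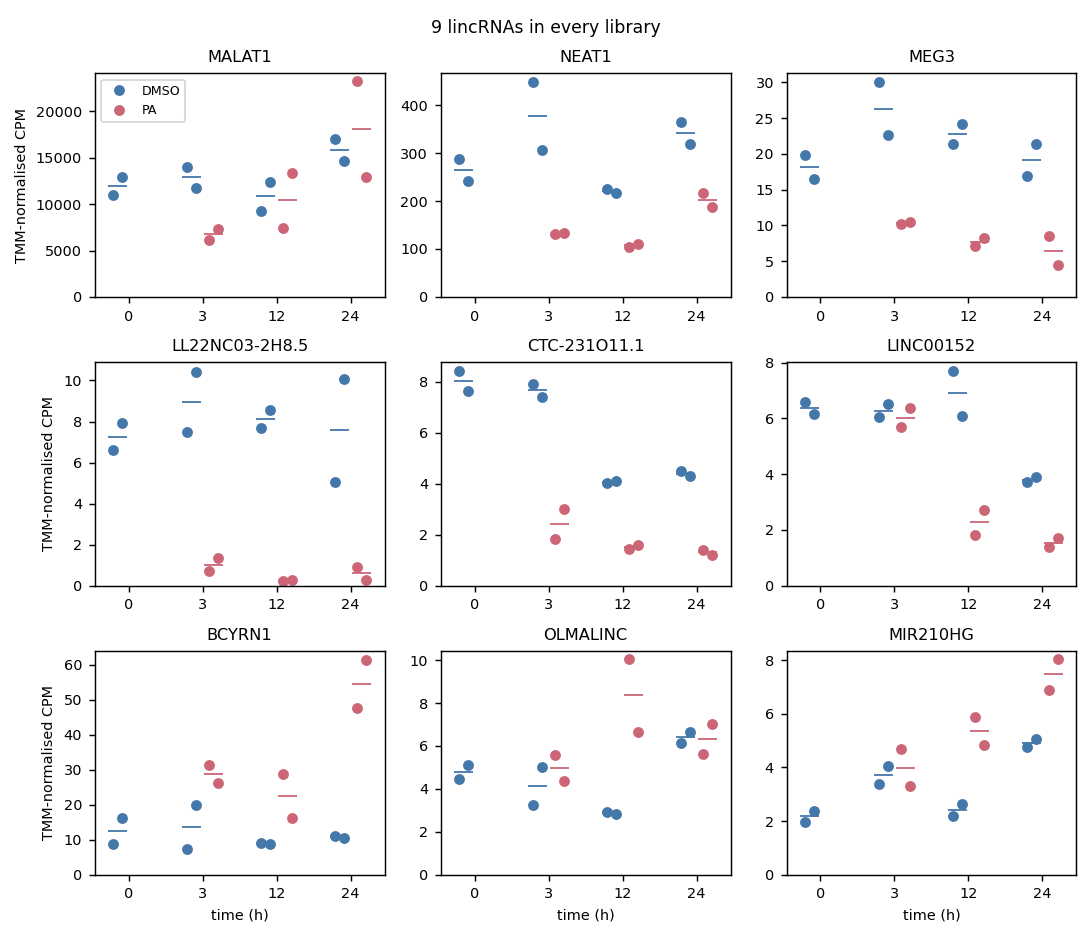
TMM-normalised CPM (linear axis from 0) of 9 lincRNAs against time in hours, with DMSO in blue, PA in red, 1 point per library and a bar at the mean of each group. NEAT1, MEG3, LL22NC03-2H8.5 and CTC-231O11.1 lie below DMSO at each PA time, LINC00152 from 12 h on, while BCYRN1 and MIR210HG lie above DMSO at 12 and 24 h.

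LL22NC03-2H8.5 (ENSG00000274422.1, chr22:22283928-22287220, of no known function) had the largest fall of the set at each time. It held 7.47 and 10.4 CPM with DMSO and 0.695 and 1.33 with PA at 3 h, and 5.07 and 10.1 against 0.917 and 0.279 at 24 h. At 12 h the PA libraries had 7 and 8 reads and the DMSO libraries 224 and 282. The log2 changes were -3.12 ± 0.41 (adjusted p = 0.00148), -4.89 ± 0.51 (adjusted p = 1.99e-05) and -3.66 ± 0.45 (adjusted p = 3.88e-05). Without PA replicate 1 the 3 h value was -2.74 (adjusted p = 0.0619). Its transcript, unspliced and 3293 nt long, has a GC content of 28.7%, the lowest of the members called at 3 h.

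MEG3 (ENSG00000214548.13, chr14:100779410-100861031), the maternally expressed RNA of the imprinted DLK1 region and a host of miR-770, fell at all times as well. With DMSO it stood at 30.0 and 22.6 CPM at 3 h, at 21.3 and 24.2 after 12 h and at 16.9 and 21.4 after 24 h. With PA it stood at 10.2 and 10.5 at 3 h, 7.12 and 8.21 at 12 h and then 8.495 and 4.46 at 24 h. No PA library reached the lowest DMSO library. The log2 changes were -1.35 ± 0.25 (adjusted p = 0.0144), -1.57 ± 0.25 (adjusted p = 0.000369) and -1.56 ± 0.25 (adjusted p = 0.000241). At 3 h the call was lost without DMSO replicate 1 (-1.13, adjusted p = 0.143), without PA replicate 1 (-1.33, adjusted p = 0.256) and without PA replicate 2 (-1.36, adjusted p = 0.0749), and with limma on RPKM (-0.90 and -1.25, adjusted p = 0.0603 and 0.118).

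The other members that fell at 3 h were LINC00504 (-1.66), RP11-703G6.1 (-1.70), XXbac-BPGBPG55C20.2 (-1.68), FAM95C (-1.65), FLJ35934 (-1.77), CTD-2547G23.4 (-1.61), RP11-725P16.2 (-1.33), CTC-444N24.11 (-0.76) and CTC-231O11.1, as log2 changes. RP11-725P16.2 and CTC-444N24.11 were named after their values were seen. LINC00504 held 5.55 and 6.26 CPM with DMSO and 1.58 and 2.13 with PA at 3 h. XXbac-BPGBPG55C20.2 went from 7.19 and 6.39 CPM with DMSO to 1.37 and 1.19 with PA at 24 h. In all of them the PA pair was lower than the DMSO pair without overlap at 3 h, as it was in 47.9% of the members and 27.9% of all genes tested. Without PA replicate 1 the 3 h call was lost in each of the 9, with -1.46 for LINC00504 (adjusted p = 0.159), -1.38 for RP11-703G6.1 (0.484), -1.55 for XXbac-BPGBPG55C20.2 (0.320), -1.67 for FAM95C (0.369), -1.88 for FLJ35934 (0.372) and -1.59 for CTD-2547G23.4 (0.357). Without DMSO replicate 1 FLJ35934 had -1.003 (adjusted p = 0.333) and CTD-2547G23.4 -0.96 (0.266). Of FAM95C, 99.8% of the exonic bases lie in exons of other genes, and the reads of FLJ35934 were not proportional to its RPKM, so the level of either is uncertain.

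Hosts of microRNAs went both ways. CTC-231O11.1 (ENSG00000253522.3, chr5:160438594-160487426), the host of miR-146a, which dampens NF-kB signalling and is itself induced by it, fell at each time. It stood at 8.42 and 7.65 CPM at 0 h. With DMSO it had 7.93 and 7.42 at 3 h, then 4.04 and 4.12 at 12 h and finally 4.49 and 4.31 at 24 h, so that it fell from 0 to 12 h with DMSO too (log2 change -0.97 ± 0.22, adjusted p = 0.0466). With PA it had 1.83 and 3.02 at 3 h, 1.44 and 1.61 at 12 h and then 1.41 and 1.22 at 24 h, below both DMSO libraries of the same time. The log2 changes were -1.65 ± 0.22 (adjusted p = 0.00191), -1.42 ± 0.24 (adjusted p = 0.000566) and -1.74 ± 0.25 (adjusted p = 9.51e-05). Without PA replicate 1 the 3 h value was -1.34 (adjusted p = 0.0535).

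The host of miR-23a, miR-27a and miR-24, CTD-3252C9.4 (chr19:13823880-13842928, minus strand), held 3.08 and 2.52 CPM with DMSO and 1.51 and 1.25 with PA at 12 h, and 3.84 and 4.34 against 2.22 and 2.44 at 24 h. It fell by 1.02 at 12 h (adjusted p = 0.0148) and by 0.81 at 24 h (adjusted p = 0.0267) on the log2 scale, and 13.2% of its exonic bases overlap other genes, ZSWIM4 among them. Neither call held in every fit that left out 1 library. The ratio of its reads to RPKM implies a counted length of 1936 nt, against 19049 nt for the GENCODE 29 transcript. The let-7i host RP11-631N16.2 (chr12:62602752-62622213, plus strand) had 3.42 and 3.21 CPM with DMSO and 1.01 and 1.46 with PA at 12 h, and it fell (-1.42 ± 0.45, adjusted p = 0.0189). The 12 h call of this let-7i host also did not hold in every fit that left out 1 library. At 24 h its PA libraries were apart, with 2.47 and 0.558 CPM (adjusted p = 0.0903). Both hosts were named after their values were seen.

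MIR210HG (ENSG00000247095.2, chr11:565660-568457), the host of miR-210, a microRNA known for its induction by hypoxia, rose. At 12 h it held 2.19 and 2.64 CPM with DMSO and 5.90 and 4.82 with PA, and at 24 h 4.76 and 5.08 with DMSO and 6.91 and 8.05 with PA. The groups did not overlap at either time; PA lay above DMSO without overlap in 37.3% of all genes at 12 h and 39.0% at 24 h. The log2 change was 1.15 ± 0.23 (adjusted p = 0.00160) at 12 h and 0.60 ± 0.22 (adjusted p = 0.0317) at 24 h. At 24 h the call was lost, with -0.02, under the offset for GC content and length, and it was also lost without either DMSO library or without PA replicate 2 (0.49 to 0.65), without a filter (0.57, adjusted p = 0.0721) and with limma on RPKM (0.20 and 0.27, adjusted p = 0.287 and 0.334). At 12 h the offset with a replicate block gave 0.55 (adjusted p = 0.0506). With DMSO alone MIR210HG rose from 0 to 24 h (1.17 ± 0.24, adjusted p = 0.0184), a call lost when any 1 library of that comparison was left out. The DMSO libraries at 24 h also lay above those at 12 h, a difference that was not tested. MIR4458HG rose at 24 h only (1.08 ± 0.32, adjusted p = 0.0113), from 4.82 and 4.28 to 10.6 and 8.65 CPM; the change was not called without DMSO replicate 2 or without PA replicate 1 (adjusted p = 0.0747 and 0.0639) or with limma on RPKM (0.48 and 0.72, adjusted p = 0.144 and 0.147). MIR22HG, the host of the abundant miR-22, had 28.9 and 33.1 CPM with DMSO and 33.3 and 27.1 with PA at 24 h and was not called at any time. Of 12 tested host genes on the list of microRNA hosts, matched by the symbols of the table, 1 rose and 2 fell at 12 h, and 2 rose and 2 fell at 24 h. DICER1, which cuts microRNA precursors, fell by 1.34 on the log2 scale at 12 h (adjusted p = 0.000402), among 4 that fell and 1 that rose of 12 maturation factors.

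Both members that host snoRNAs fell at 12 h. SNHG15 stood at 13.6 and 14.7 CPM with DMSO and 7.37 and 8.86 with PA at 12 h (log2 change -0.80 ± 0.17, adjusted p = 0.00173), and at 15.4 and 15.5 with DMSO and 8.81 and 9.59 with PA at 24 h (-0.75 ± 0.16, adjusted p = 0.00182). SNHG8 had 4.08 and 6.67 CPM with DMSO and 3.13 and 2.82 with PA at 12 h (-0.86 ± 0.25, adjusted p = 0.0137) and overlapped between groups at 24 h (-0.04). Without DMSO replicate 2 its 12 h change was -0.47 (adjusted p = 0.2), and on the compared libraries alone it was -0.87 (adjusted p = 0.0750). Over all types of RNA, 9 of 19 tested snoRNA host genes fell at 12 h. At 24 h 7 fell and 2 rose, the latter being SNHG5 (0.51) and ZFAS1 (1.16), which are not members. Spliced snoRNA host RNAs are known targets of nonsense-mediated decay, and 6 of 16 genes of that pathway fell at 12 h while 1 rose. UPF3B fell by 2.43 (adjusted p = 6.16e-06) and UPF2 by 1.97 (adjusted p = 4.78e-05) on the log2 scale. Of 16 genes for snoRNP proteins 7 fell and 3 rose; NOP58, a core box C/D protein, had -2.14 and FBL, the box C/D methyltransferase, 0.74.

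NORAD (LINC00657, chr20:36045622-36050960), which binds Pumilio proteins, was not called at any time. Whether the motif matches shown above are bound in these cells was not tested. At 12 h it stood at 235 and 228 CPM with DMSO and 147 and 225 with PA, and at 24 h at 182 and 168 with DMSO and 147 and 136 with PA. Every PA library was below both DMSO libraries of its time, with log2 changes of -0.22 ± 0.18 at 3 h, -0.32 ± 0.18 at 12 h and -0.31 ± 0.18 at 24 h, and adjusted p of 0.529, 0.148 and 0.154. Under the offset for GC content and length the signs turned, to 0.37 at 12 h (adjusted p = 0.00505) and 0.43 at 24 h (adjusted p = 0.00153). Without PA replicate 2 the 12 h fall was called (-0.65, adjusted p = 0.00164), as was that at 24 h on the compared libraries alone (-0.33, adjusted p = 0.0334). Of 8 tested NORAD-binding proteins 4 fell at 12 h and 6 at 24 h. PUM2 was among them (-0.84 at 12 h, adjusted p = 0.00663), as was TOP1, the topoisomerase of the NORAD complex (-1.44, adjusted p = 8.31e-05).

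LINC00152 (CYTOR, chr2:87454781-87636740), a mostly cytoplasmic RNA linked to growth of several carcinomas, fell from 12 h on. At 3 h it held 6.04 and 6.51 CPM with DMSO and 5.69 and 6.38 with PA, and the groups overlapped. At 12 h it held 7.71 and 6.09 with DMSO and 1.83 and 2.71 with PA, and at 24 h 3.72 and 3.90 with DMSO and 1.37 and 1.71 with PA. PA libraries then lay below DMSO, with log2 changes of -1.60 ± 0.23 (adjusted p = 0.000159) and -1.30 ± 0.24 (adjusted p = 0.000550). CYTOR has a near-identical copy on the same chromosome, and how the authors' counting shared reads between them is not given in the sources used here.

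Among the members linked to cancer, LINC00941 had 10.2 and 11.0 CPM with DMSO and 6.91 and 7.29 with PA at 24 h, and it fell at 12 h (-0.60 ± 0.18, adjusted p = 0.0159) and 24 h (-0.58 ± 0.19, adjusted p = 0.0172). The 12 h call was lost without DMSO or PA replicate 2 (-0.44 and -0.49, adjusted p = 0.129 and 0.0589) and on the compared libraries alone (-0.61, adjusted p = 0.0789), and the 24 h call without DMSO replicate 2 or either PA library (adjusted p = 0.0900, 0.0764 and 0.0542). All of its exonic bases are shared with another annotated gene. PVT1, the RNA beside MYC, had 3.77 and 3.52 CPM with DMSO and 3.27 and 3.04 with PA at 12 h and log2 changes of -0.62, -0.21 and 0.25. LUCAT1 had -0.82, -0.54 and 0.51, LINC01116 -0.32, -0.47 and -0.54, and LINC00857 0.20, 0.40 and 0.02. None of these 4 passed the test at any time. Under alternatives, LINC00857 was called at 12 h without PA replicate 2 (0.55, adjusted p = 0.0107) and with the stricter filter (0.40, adjusted p = 0.0453). LUCAT1 was called higher at 24 h with the offset for GC content and length (1.13, adjusted p = 0.00516) and lower at 3 h without a filter (-0.79, adjusted p = 0.0453). Of 18 tested genes on the list of cancer-linked RNAs, 5 fell and 2 rose at 12 h and 5 fell and 3 rose at 24 h. LINC00346 rose at 24 h, from 7.74 and 9.16 to 16.9 and 16.6 CPM (0.99 ± 0.18, adjusted p = 0.000474).

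BCYRN1 (ENSG00000236824.1, chr2:47335315-47335514), a small RNA that represses translation in dendrites and is found in tumours, had the largest rise of the set at 24 h. It held 7.205 and 19.8 CPM with DMSO and 31.2 and 26.2 with PA at 3 h. At 12 h it held 8.87 and 8.82 with DMSO and 28.6 and 16.3 with PA, and at 24 h 11.06 and 10.5 with DMSO and 47.4 and 61.2 with PA. PA libraries were above DMSO at each time, with log2 changes of 1.09 ± 0.38 (adjusted p = 0.196), 1.34 ± 0.39 (adjusted p = 0.0128) and 2.33 ± 0.40 (adjusted p = 0.000334). The call at 12 h was lost without DMSO replicate 1, without DMSO replicate 2 and without PA replicate 1 (adjusted p = 0.0737, 0.0711 and 0.0985) and with limma on RPKM (0.59 and 1.08, adjusted p = 0.107 and 0.0983). The ratio of reads to RPKM implies that the authors counted over 14763 nt rather than the 200 nt of the annotated gene. The share of that small RNA among these reads was not tested.

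AP001065.15 (LINC02575 in GENCODE 29, chr21:44485577-44490288) had the largest rise at 12 h. DMSO libraries held 5.82 and 5.82 CPM and PA libraries 26.2 and 25.8 at 12 h. At 24 h the values were 9.004 and 8.43 with DMSO and 15.1 and 13.4 with PA. The log2 change was 2.16 ± 0.15 (adjusted p = 1.49e-06) at 12 h and 0.71 ± 0.15 (adjusted p = 0.00123) at 24 h, and the difference between the times is tested further on. Under the offset for GC content and length the 24 h value was 0.31 (adjusted p = 0.105). C14orf132, now typed protein coding, rose at 12 h from 7.71 and 5.76 to 19.5 and 17.6 CPM (1.46 ± 0.17, adjusted p = 4.20e-05) and at 24 h (1.16 ± 0.17, adjusted p = 0.000105). AP006621.5 rose at 24 h from 10.5 and 10.5 to 23.5 and 22.5 CPM (1.13 ± 0.18, adjusted p = 0.000172), CMB9-22P13.1 at 12 h from 13.5 and 12.3 to 24.8 and 28.97 (1.06 ± 0.16, adjusted p = 0.000290) and AC005355.2 from 5.93 and 5.64 to 14.1 and 11.11 (1.12 ± 0.19, adjusted p = 0.000553). CMB9-22P13.1, typed a pseudogene in GENCODE 29, lies between NEAT1 and MALAT1 on chromosome 11, at chr11:65455258-65466720. A lincRNA that fell, a pseudogene row that rose and a lincRNA that passed the test at no time thus stand side by side.

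OLMALINC (ENSG00000235823.1, chr10:100373513-100454043) rose at 12 h alone. It had 2.91 and 2.82 CPM with DMSO and 10.1 and 6.64 with PA at 12 h (1.54 ± 0.26, adjusted p = 0.000503), and 6.15 and 6.64 with DMSO and 5.64 and 7.01 with PA at 24 h, where the groups overlapped (-0.02, adjusted p = 0.965). Its nearest coding start, 26389 bp away, is that of SCD, the stearoyl-CoA desaturase, which held 568 ± 144 CPM (SD) with DMSO and 6026 ± 698 with PA at 12 h (log2 change 3.41, adjusted p = 1.15e-06). SCD stayed higher at 24 h (2.76, adjusted p = 1.65e-06).

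Further falls were deepest at 24 h. RP11-53O19.3 had 4.18 and 4.98 CPM with DMSO and 1.30 and 0.976 with PA (log2 change -2.003, adjusted p = 0.000217), and RP11-95D17.1 4.89 and 6.67 with DMSO and 0.952 and 1.36 with PA (-2.32 ± 0.30, adjusted p = 4.56e-05). LINC00261, beside the endoderm factor gene FOXA2 and named after its values were seen, had 24.4 and 24.7 with DMSO and 12.7 and 6.73 with PA (-1.34 ± 0.24, adjusted p = 0.000513), with 86.1% of its exonic bases shared with another gene. Among smaller rises at 24 h, LINC00839 went from 4.92 and 5.49 with DMSO to 10.4 and 10.5 CPM with PA (1.01 ± 0.23, adjusted p = 0.00243) and LINC00869, typed a pseudogene in GENCODE 29, from 4.03 and 3.90 to 7.33 and 7.57 (0.91 ± 0.23, adjusted p = 0.00426). The last was not called with limma on RPKM (0.26 and 0.52, adjusted p = 0.103 and 0.119).

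The interaction terms of the fit tested whether a response to PA differed between times. From 3 to 12 h the response of 5 members differed, with 2.79% of all genes called (2.1% upward and 0.685% downward): CMB9-22P13.1, C14orf132, AP006621.5 and AP001065.15 responded more upward and LINC00152 more downward at 12 h. For LINC00152 the difference was -1.54 ± 0.31 (adjusted p = 0.0204) and for AP001065.15 1.71 ± 0.21 (adjusted p = 0.00181). Between 12 and 24 h 2 members differed, with 0.422% of all genes called. AP001065.15 responded less at 24 h (-1.45 ± 0.21, adjusted p = 0.0108), and KB-1732A1.1 went from 6.87 and 8.14 CPM with PA against 6.44 and 6.36 at 12 h to 4.27 and 5.26 against 9.37 and 9.71 at 24 h (-1.23 ± 0.24, adjusted p = 0.0487). For the fall of NEAT1, smaller at 24 than at 3 h, neither step in time passed the test. These counts rested on single libraries: from 3 to 12 h they ran from 1 to 17 when 1 library was left out, 17 being the count without PA 12 h replicate 2 and 1 that without DMSO 3 h replicate 1, PA 3 h replicate 2 or DMSO 12 h replicate 2. From 12 to 24 h they ran from 0 without DMSO 12 h replicate 1, DMSO 12 h replicate 2 or DMSO 24 h replicate 1 to 5 without PA 12 h replicate 1.

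Time in DMSO alone moved few members. From 0 to 3 h edgeR called no member and no gene, with 4 members and 215 genes at an unadjusted p under 0.05, and DESeq2 called none. From 0 to 12 h CTC-231O11.1 and LINC00869 fell, with 1.46% of all genes called, LINC00869 from 7.63 and 5.64 to 2.98 and 2.70 CPM (-1.22 ± 0.23, adjusted p = 0.0233). From 0 to 24 h AP001065.15 and MIR210HG rose and AC125807.2 (its GENCODE 29 name, ENSG00000250899.3) and RP5-875H18.9 fell, with 2.46% of all genes called (0.527% higher and 1.93% lower). AC125807.2 went from 8.35 and 9.83 to 4.49 and 5.52 CPM (-0.86 ± 0.20, adjusted p = 0.0404), and its PA libraries at 24 h held 4.41 and 4.43. RP5-875H18.9 went from 6.55 and 6.23 to 2.43 and 3.48 CPM (-1.11 ± 0.26) and stood at 5.68 and 5.12 with PA at 24 h, a rise over DMSO of 0.87 ± 0.27 (adjusted p = 0.0136) that was not called without DMSO replicate 1 (0.63, adjusted p = 0.135) or PA replicate 1 (0.80, adjusted p = 0.0594), nor with limma on RPKM (0.48 and 0.56, adjusted p = 0.123 and 0.105). The DMSO groups at 0, 12 and 24 h share libraries with other comparisons, and leaving out any 1 library of these 2 comparisons left no call.

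Many lincRNAs start beside a coding gene on the other strand, and 22 tested pairs had starts within 1 kb of each other. At 12 h both genes of a pair were called in 5 pairs, in the same direction in 3 and in opposite directions in 2, and at 24 h in 6 pairs, in the same direction in 5. Over the 22 pairs the Spearman correlation of the log2 changes was 0.05 at 12 h and 0.28 at 24 h. In the other 61 pairs of a member and its nearest coding start both were called in 18 at 12 h, in the same direction in 15, with a correlation of 0.34. At 24 h both were called in 21 of these 61, in the same direction in 17, with a correlation of 0.30. Of all genes tested 48.5% were called at 12 h and 54.6% at 24 h. These correlations are descriptions over pairs that share libraries.

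RP11-259N19.1 (chr2:74832655-74833987, minus strand) starts 6 bp from HK2, the hexokinase that commits glucose to glycolysis, in the GENCODE annotation. It stood at 8.97 and 9.88 CPM with DMSO and 4.96 and 4.39 with PA at 12 h, and at 5.07 and 7.504 with DMSO and 2.43 and 1.71 with PA at 24 h. It fell by 1.01 at 12 h (adjusted p = 0.00399) and by 1.60 at 24 h (adjusted p = 0.000241) on the log2 scale. HK2 held 69.2 ± 0.508 CPM (SD) with DMSO and 114 ± 8.52 with PA at 12 h and rose by 0.72 at 12 h (adjusted p = 0.000481) and 0.82 at 24 h (adjusted p = 0.000124). SOX21-AS1 and SOX21, a neural transcription factor gene, start 317 bp apart and fell together at 24 h. SOX21-AS1 had 9.07 and 9.71 CPM with DMSO and 2.26 and 2.20 with PA (-2.07 ± 0.25, adjusted p = 3.06e-05), and SOX21 had 11.9 ± 0.0753 with DMSO and 2.49 ± 0.675 with PA (-2.26, adjusted p = 9.02e-06). At 12 h SOX21-AS1 fell (-1.27 ± 0.24, adjusted p = 0.000971) and SOX21 was not called (-0.26, adjusted p = 0.325). AP001372.2 had -0.98 at 12 h (adjusted p = 0.0208) while LIPT2 across from it had 1.01 (adjusted p = 0.00210), though 19.7% of the lincRNA's exonic bases overlap other genes, LIPT2 among them. At 12 h AP001372.2 had 206 and 227 reads with DMSO and 55 and 142 with PA, and its call did not hold in every fit that left out 1 library. RP11-259N19.1 and AP001372.2 were named after their values were seen.

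**Figure D3:**
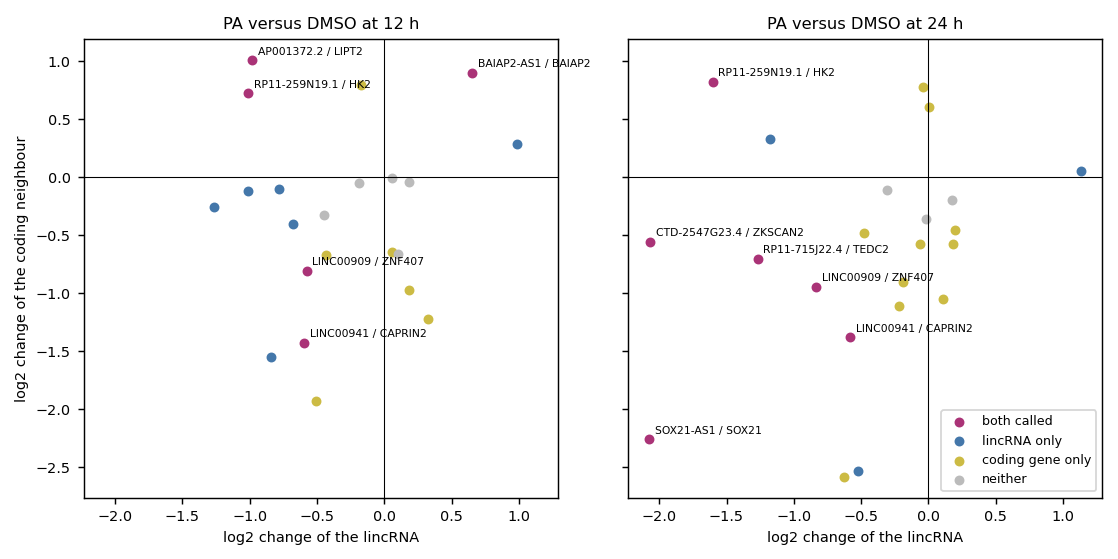
Log2 change of a lincRNA (horizontal) and of the coding gene that starts within 1 kb on the opposite strand (vertical) in the 22 pairs, PA against DMSO at 12 h (left) and 24 h (right). Points are coloured by which gene passed the test; pairs in which both did are named, and RP11-259N19.1 with HK2 lies in the upper left at both times.

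The change with PA followed the GC content of the transcript, in the set as in all genes. Over the 95 members with a GENCODE 29 transcript the Spearman correlation of the log2 change with GC content was 0.35 at 3 h, 0.47 at 12 h and 0.38 at 24 h, against 0.48, 0.64 and 0.58 over 15071 genes of every type. These are descriptions over genes measured in the same libraries. At 12 h the members that fell had a median GC content of 43.2% and those that rose 52.7%. Of 40 members under 45% GC, 23 fell and 1 rose at 12 h, and of 55 at or above it 14 fell and 13 rose. The median log2 change was -0.72 and 0.06 in these groups, against -0.65 and 0.34 for all genes split the same way. With an offset for GC content and length 27 members fell and 16 rose at 12 h, and 38 fell and 20 rose at 24 h. The share of all genes called under the offset is not given here, so these counts cannot be set against other genes. The median log2 change of the set was then -0.15 and -0.27, against 0.04 at both times for all genes in that fit. Whether GC content itself plays a part in the changes was not tested.

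**Figure D4:**
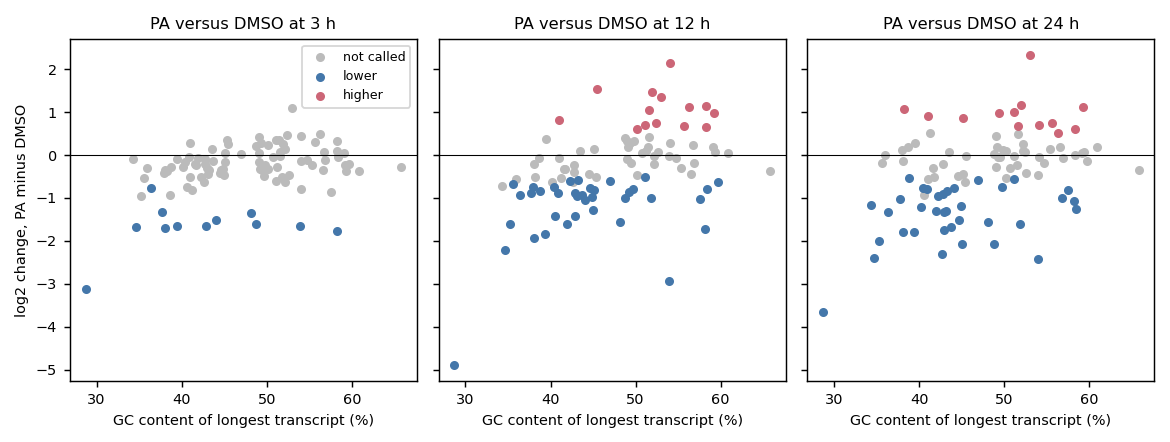
Log2 change with PA (vertical) against the GC content in percent of the longest transcript (horizontal) for 95 lincRNAs at 3, 12 and 24 h, with members that fell in blue, that rose in red and not called in grey. LL22NC03-2H8.5 is the lowest point, at 28.7% GC, and most red points lie above 45%.

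Profiles over the 14 libraries were compared by the correlation of log2(CPM + 0.5). LINC00662 (Pearson r = 0.79), LINC00461 (0.75), LINC01184 (0.73) and LINC00467 (0.66) were nearest to MALAT1. FLJ35934 (0.91), RP11-725P16.2 (0.88), CTD-3252C9.4 (0.85) and XXbac-BPGBPG55C20.2 (0.85) were nearest to NEAT1. MALAT1 and NEAT1 themselves had r = 0.56. The 14 libraries share their treatment groups, so these values are a description. LINC00662, the nearest to MALAT1, held 7.66 and 10.0 CPM with PA at 12 h and 15.7 and 10.0 at 24 h, with replicate 1 the lower at 12 h and the higher at 24 h, as for MALAT1.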

How the data were processed

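Reads per gene (whole-number counts) were deposited by the authors for 28120 genes in 14 libraries, without normalization, and RPKM values were deposited for 25447 of them. The submitters' processing notes name TopHat2, edgeR and GRCh38. The sources used here do not give the annotation release, the strand setting or the gene lengths used for RPKM. Each library column carries the name of 1 sample label, and an extra empty field in 8163 lines was skipped.

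Counts were fitted with edgeR 4.0.16 in R 4.3.3 (TMM, filterByExpr by group, quasi-likelihood, all 14 libraries, 7 residual degrees of freedom, biological coefficient of variation 15.1%). P-values were two-sided and adjusted by Benjamini-Hochberg over 15181 genes, with a threshold of 0.05. The method was tested on simulated data. CPM are TMM-normalised. Gene models, GC content and overlaps came from GENCODE 29. Alternatives were DESeq2 1.42.0, its size factors, no filter on low counts, a stricter filter (5 CPM or more in 2 libraries), a replicate block, the compared libraries alone, limma 3.58.1 on log2(RPKM + 1) and log2(RPKM + 0.1), an offset for GC content and length (natural splines, 5 degrees of freedom) alone or with the block, leaving out each library, and other member rules, of which the restriction to 58 unambiguous lincRNAs was added after seeing the data.

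The members and lists were chosen with earlier results of these data known. Named were MALAT1, NEAT1, the members on the lists, the 8 strongest called members each way at each PA time whose groups did not overlap (at most 4 with clone names), up to 4 each way in the other comparisons, the 6 highest RPKM, up to 4 partner genes a list by smallest p, and the 4 members most like MALAT1 and NEAT1 over the libraries; members named beyond this are marked in the text. Floors cover counting error only. A few items are not reported here.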

Additional observations from a re-analysis of the deposited data

Results flagged for a closer look

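For 6 members the response to PA differed between times by the interaction term of edgeR's fit, adjusted over all genes tested. From 3 to 12 h the log2 response moved by 0.99 for CMB9-22P13.1, 1.22 for C14orf132, 1.21 for AP006621.5, 1.71 for AP001065.15 and -1.54 for LINC00152 (adjusted p = 0.0374, 0.0182, 0.0241, 0.00181 and 0.0204). From 12 to 24 h it moved by -1.23 for KB-1732A1.1 and -1.45 for AP001065.15 (adjusted p = 0.0487 and 0.0108). AP001065.15 is the member that appears at both steps, first upward and then back.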

How the results depend on the processing

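The numbers of members called at 3, 12 and 24 h were 12, 51 and 49. Leaving out 1 library gave 1 to 7, 29 to 54 and 40 to 45. At 3 h limma on RPKM gave 4 with either pseudocount and the rule over all 14 libraries 7. The 4 compared libraries alone gave 31 at 12 h. Restricting the set to 18 members of 500 reads or more gave 3, 10 and 10, and to 58 unambiguous lincRNAs 29 at 12 h and 31 at 24 h; both hold fewer members. The difference from 3 to 12 h (5 members) gave 8 without a filter, 8 with the GC and length offset, 2 with limma at either pseudocount, 1 with the compared libraries alone, 3 for unambiguous lincRNAs and 1 to 17 without 1 library. The difference from 12 to 24 h (2 members) gave 5 with DESeq2, 5 without a filter, 4 with the offset, 0 with the compared libraries alone and 0 to 5 without 1 library. DMSO at 12 h (2 members) gave 6 with DESeq2, 9 without a filter, 4 with the offset, 0 with limma at either pseudocount, 18 with the compared libraries alone, 1 for unambiguous lincRNAs and 0 to 0 without 1 library. DMSO at 24 h (4 members) gave 7, 8, 12, 2, 29 and 0 to 0 in the same order, leaving out the unambiguous set. All 4 of these comparisons gave 0 for members of 500 reads or more. The causes were not tested. Limma on RPKM, which is not TMM-normalised, gave 6 higher and 43 lower at 24 h. Its median log2 change at 24 h was -0.37 for the members with pseudocount 1 and -0.62 with 0.1. For all genes it was -0.01 and -0.06. DESeq2 called 203 genes of any type for 12 to 24 h, 679 for DMSO at 12 h and 774 for DMSO at 24 h. The shares of all genes called in the other alternative fits are not given here, so those counts cannot be set against other genes.

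Deviations of same-numbered libraries gave no pairing: their correlation passed 0.1 in 2 of 21 pairs of groups (-0.218 to 0.244). With a replicate block the counts were 11, 51 and 49 at 3, 12 and 24 h, 4 and 1 for the differences between times, and 1 and 2 for DMSO at 12 and 24 h. The offset paired with the block gave 4 and 12 for DMSO at 12 and 24 h.

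The offset turned the sign of 5 named values: AC005355.2 (-0.0193) and MIR210HG (-0.0207) at 24 h, MALAT1 (0.89) at 12 h, and NORAD (LINC00657, 0.37 and 0.43) at 12 and 24 h. Paired with the block these were -0.0223, -0.0219, 0.88, 0.37 and 0.43. No other alternative turned the sign of a called value among the 39 named members. Leaving out 1 library ended the call in 54 of 468 fits of a named member and made one in 4. The 468 fits include those of values that the main fit did not call, where no call could end. The 54 are therefore not a share of the calls. Most members had few reads, and 90 of 96 had under 1000, which limits what 2 libraries a group can show.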
